A study of Mus musculus with 6 samples.

Results

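Genes that store, import, export and sense iron, together with the genes that build the end of the heme pathway and break heme down, were examined in activated lung group 2 innate lymphoid cells (aILC2s) treated with melatonin. The set held 10 named genes (Ftl1, Fth1, Ncoa4, Tfrc, Slc11a2, Slc40a1, Ireb2, Aco1, Hmox1 and Fech) of 16381 genes with a row of normalized counts, and each was found by its symbol. All 10 passed the filter for testing, a normalized count of at least 10 in at least 1 sample, as did 14419 genes in all. The question was how the RNA of these genes differed between melatonin and vehicle samples.

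The cells came from lungs of wild-type mice and were sorted as CD45+ lineage-negative ST2+ CD127+ cells. Per the study's methods, the animals were female BALB/cJ mice aged 6 to 8 weeks that had received 0.5 µg IL-33 intranasally on each of 3 days, so cells of both groups had been activated in vivo. BALB/c mice make little melatonin of their own. The sorted cells were then cultured for 24 h with 250 µM melatonin (3 samples) or with DMSO, the vehicle (3 samples). The labels do not say whether the 3 samples of a group came from separate mice, pools or wells, so the p-values below measure only the spread between these samples. That spread may be technical among the vehicle samples, whereas the melatonin samples did not share one sex, as described below.

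Iron inside a cell is held in ferritin, a shell built of light (Ftl1) and heavy (Fth1) chains, and is released again when NCOA4 carries ferritin to the lysosome. Iron enters through the transferrin receptor (Tfrc) and the divalent metal transporter (Slc11a2) and leaves through ferroportin (Slc40a1). When iron is scarce, the iron regulatory proteins IRP1 (Aco1) and IRP2 (Ireb2) bind hairpins called iron-responsive elements, where they hold back translation from the 5′ UTR of ferritin and ferroportin mRNA and protect Tfrc mRNA at its 3′ UTR. Ferritin protein is thus set in large part after transcription, and the counts described here measure RNA and not protein or iron.

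The hairpins are shown because they divide the 10 genes into those that carry the IRP target and those in which none was matched. The search, on the sense strand of the canonical transcript, looked for a C followed by 5 bases, the loop CAGTGN, and 5 bases that pair with the first 5, G to T pairs allowed. It found 7 elements in 4 of the 10 genes, against 1.33% of 21770 canonical protein-coding transcripts with at least 1. Each is printed 5′ to 3′ on the transcript strand in the GRCm39 build, with the bulged C and the loop in capitals.
Ftl1, 5′ UTR, chr7:45109203-45109231, minus strand: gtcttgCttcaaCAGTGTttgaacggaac
Fth1, 5′ UTR, chr19:9960096-9960124, plus strand: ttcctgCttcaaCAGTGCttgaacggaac
Slc40a1, 5′ UTR, chr1:45964625-45964653, minus strand: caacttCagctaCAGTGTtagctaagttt
Tfrc, 3′ UTR, element 1, chr16:32450037-32450065, plus strand: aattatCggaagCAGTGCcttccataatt
Tfrc, 3′ UTR, element 2, chr16:32450416-32450444, plus strand: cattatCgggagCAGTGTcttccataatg
Tfrc, 3′ UTR, element 3, chr16:32450481-32450509, plus strand: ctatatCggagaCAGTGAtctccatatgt
Tfrc, 3′ UTR, element 4, chr16:32450528-32450556, plus strand: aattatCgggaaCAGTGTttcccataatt
The element of Ftl1 covered bases 78 to 106 of a transcript whose coding sequence begins at base 254, and that of Fth1 bases 87 to 115 of one that begins coding at base 225. In Slc40a1 it covered bases 166 to 194, with coding from base 396. In Tfrc the 4 elements lay between bases 3320 and 3839, downstream of the last coding base at 2434. No match says only that these letters were not in the transcript searched, and other transcripts of the remaining 6 genes were not searched.

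Some properties of the libraries touch all results. The estimated counts summed to between 17056247 and 20511667 per library. The 12 ILC2 markers were all listed, with Gata3 at 17890 to 24588 normalized counts over the 6 samples. Their sum was 139599 to 146908 in vehicle and 111411 to 113620 in melatonin samples. Limma called 6 of them lower and 2 higher, where 49.2% of all genes tested were called. Among the lower were Klrg1 (log2 fold change -2.16), Thy1 (-2.88), Areg (-1.69) and Il7r, which encodes the sort marker CD127 (-1.06). The 2 higher were Il1rl1, which encodes the sort marker ST2 (0.63), and Rora (0.64). Ptprc, which encodes the sort marker CD45, was not called (-0.04). Macrophage and monocyte markers summed to 1331 to 1546 in vehicle and 366 to 838 in melatonin samples, with 10 of 14 listed, Marco, C1qc, Spic and Cd163 not among them, and C1qa and C1qb at 0 with melatonin. Erythroid markers, which matter for heme genes, summed to 33.7 to 62.5 in vehicle and 28.4 to 71.9 in melatonin samples, with 4 of 10 listed and Klf1 and Alas2 not listed. The summed T and NK cell markers (5 of 7 listed) lay between 326 and 363 in vehicle and between 40.4 and 120 in melatonin samples. Summed B cell markers lay between 289 and 322 and then between 131 and 162, those of neutrophils between 15.0 and 77.5 and then between 1.87 and 8.74, those of eosinophils, basophils and mast cells between 281 and 348 and then between 10.3 and 56.3, and those of lung epithelium between 956 and 2307 and then between 1061 and 1261. In the melatonin samples most of the epithelial sum was Epcam, which rose from a mean of 667 to 1097. By limma, 4 of the 6 epithelial markers tested were called lower, against 24.7% of all genes tested. Among these 4 were Scgb1a1 (mean 387 to 0.335) and Sftpc (mean 222 to 5.01), and the median log2 fold change of the list was -3.65. The part of such cells in the results below was not tested. The libraries did not share one sex. Melatonin replicates 2 and 3 held Xist at 579 and 1091 normalized counts and the 4 Y-linked genes Ddx3y, Kdm5d, Uty and Eif2s3y at 0, whereas the 3 vehicle samples and melatonin replicate 1 held all 4 Y-linked genes at 298 or more and Xist at 13.6 or less, although the methods name female mice. The library numbers in the labels also run together within each group, so a batch that follows them cannot be told apart from treatment. Melatonin replicate 1 was the melatonin sample farthest from the vehicle mean in 8 of the 10 genes, all but Ireb2 and Hmox1, and in 50.2% of all genes tested.

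With melatonin, 6 of the 10 genes rose (Ftl1, Fth1, Ncoa4, Slc11a2, Aco1 and Fech), Tfrc fell, and Slc40a1, Ireb2 and Hmox1 did not pass the test. The test was limma on log2(normalized count + 1) with Benjamini-Hochberg adjustment over the 14419 genes, called at an adjusted p under 0.05. Across all genes 49.2% were called, 24.5% higher and 24.7% lower, so 7 of 10 stands against a background in which about every other gene was called. The vehicle and melatonin values did not overlap in 7 of the 10 genes, against 60.4% of all genes tested. Of these 7, 6 were higher and 1 lower with melatonin, where 30% of all genes lay wholly higher and 30.3% wholly lower. The median log2 fold change of all genes tested was -0.00458. A change of a transcript in these bulk samples cannot be told apart from a change in the make-up of the cells or in the RNA per cell.

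**Figure D1:**
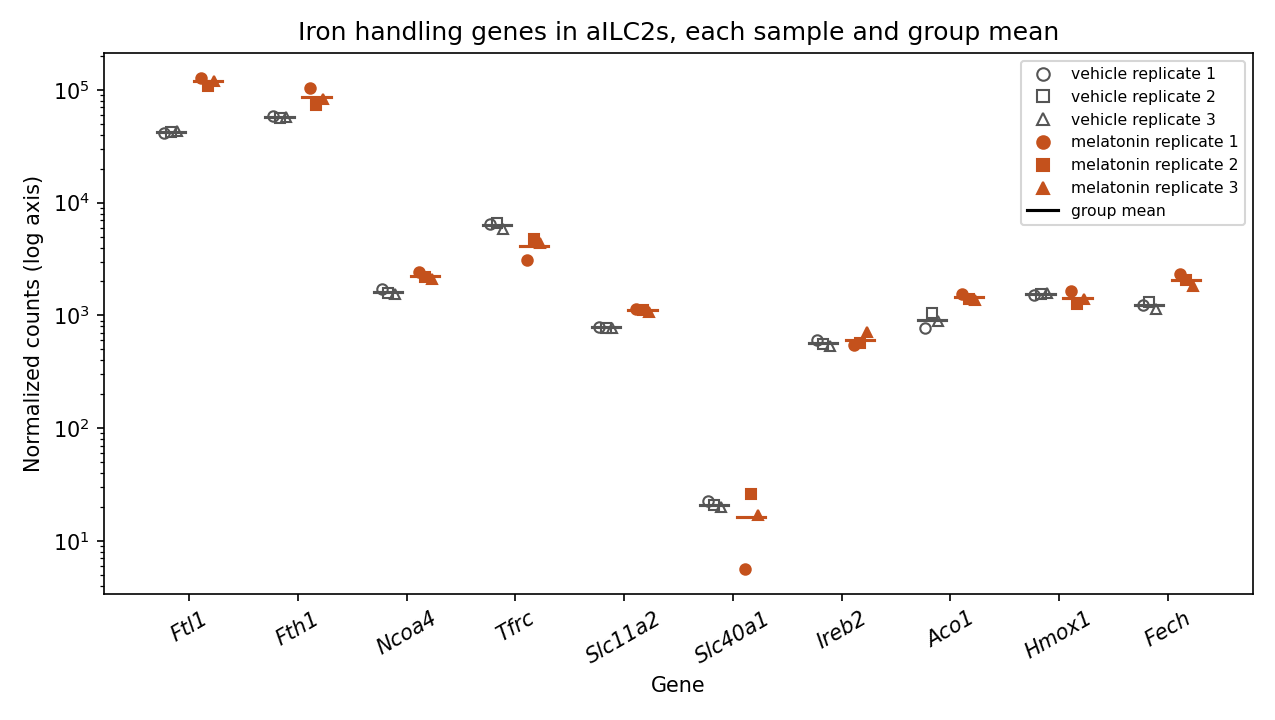
Normalized counts (log axis) of the 10 iron and heme genes in each of the 3 vehicle (open grey) and 3 melatonin (filled orange) samples, with marker shape for the replicate number and a line for the group mean. Ftl1 and Fth1 lay far above the other 8 genes in every sample, Tfrc was lower in all 3 melatonin samples, and Slc40a1 was scattered between 5.60 and 26.2.

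Ferritin chains were the most abundant transcripts of the set. The light chain gene Ftl1 (chromosome 7, 45107367 to 45109308) had normalized counts of 41795, 42351 and 42940.4 with vehicle and of 128846, 109074 and 119795 with melatonin. Every melatonin sample stood more than 2-fold above every vehicle sample, and the vehicle samples were tightly grouped. The mean went from 42362 ± 573 to 119238 ± 9898 (SD, n = 3 each), a 2.81-fold rise, with a log2 fold change of 1.49 ± 0.09 (SE) and an adjusted p of 2.28e-05 by limma. Its size exceeded that of 90.6% of the genes tested. Among all genes ordered by normalized count, Ftl1 moved from rank 25 to 28 in the vehicle samples to rank 3 to 4 in the melatonin samples.

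The heavy chain gene Fth1 (chromosome 19, 9957911 to 9962462), which carries the ferroxidase activity of the shell, was measured at 58951, 56927 and 57567 normalized counts in vehicle and at 103841, 73911 and 83307 in melatonin samples. The groups did not overlap, but the melatonin samples spread widely and replicate 1 was the highest. The coefficient of variation was 1.79% in vehicle and 17.6% in melatonin samples. The mean rose 1.51-fold, from 57815 ± 1034 to 87020 ± 15307 (SD, n = 3 each), with a log2 fold change of 0.58 ± 0.13 (SE) and an adjusted p of 0.00571 by limma.

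Light chain RNA gained on heavy chain RNA in every melatonin sample. The ratio of Ftl1 to Fth1 counts was 0.709, 0.744 and 0.746 in vehicle and 1.24, 1.48 and 1.44 in melatonin samples, a log2 difference of 0.91. Heavy chain counts were thus ahead of light chain counts in each vehicle sample and behind them in each melatonin sample, as the genes are listed. The exact two-sided permutation test gave p = 0.1, the smallest that 3 against 3 samples allow, and 0.1 after adjustment over 4 ratios.

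That reading depends on how reads were divided between Ftl1 and near-identical copies. The pseudogene Ftl1-ps1 on chromosome 13 matched the Ftl1 transcript at 99.5% of 878 aligned bases, and it was listed at 46003 to 46577 normalized counts in vehicle and 121556 to 142319 in melatonin samples. It took 51.8% to 52.7% of the light chain sum in the 6 samples, and the groups overlapped in this share. In all, 9 annotated copies matched Ftl1 at 90% identity or more over at least 50% of its length, 6 of them listed, while Fth1 had 1 such copy (Fth1-ps, 90.5% identical over 524 bases) and the other 8 genes had none. The level of Ftl1 is therefore uncertain by the part assigned to the copies. With Ftl1-ps1 and Fth1-ps added to their parent genes, the log2 fold changes were 1.5 for the light chain and 0.57 for the heavy chain. The light to heavy ratio was then 1.49 to 1.54 in vehicle and 2.60 to 3.10 in melatonin samples, so the light chain led in both groups and the log2 difference was 0.93. The direction of the shift held either way, and only the order in vehicle turned.

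**Figure D2:**
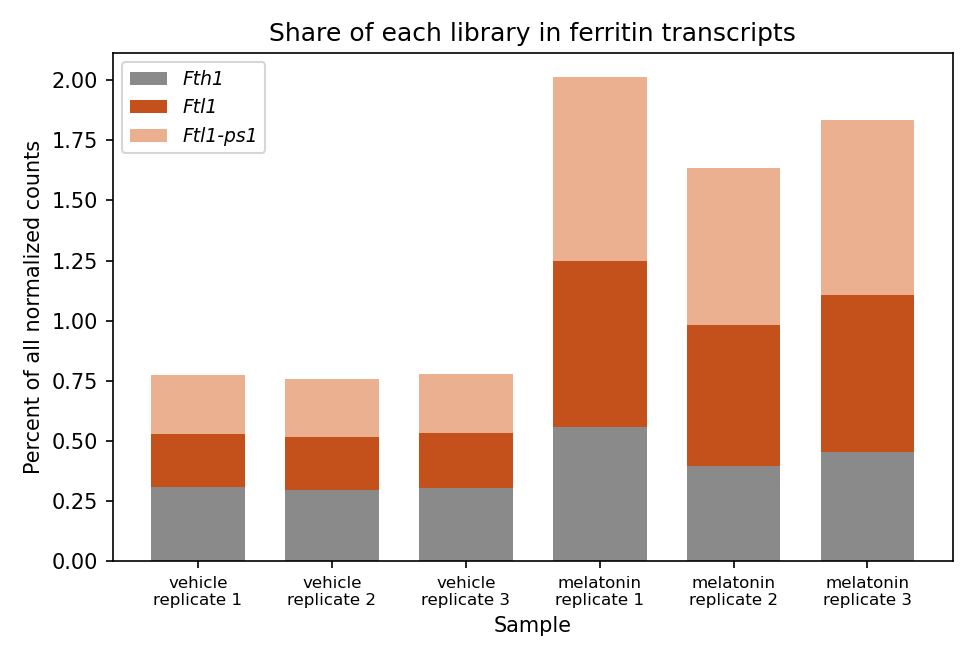
Share of all normalized counts taken by Fth1, Ftl1 and the near-identical pseudogene Ftl1-ps1 in each of the 6 samples, as stacked bars in percent. The 3 vehicle bars reach 0.756% to 0.777% and the 3 melatonin bars 1.63% to 2.01%, with most of the added height in the light chain rows.

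Taken as a share of the library, these 3 ferritin rows held 0.756% to 0.777% of all normalized counts in vehicle and 1.63% to 2.01% in melatonin samples. Fth1 alone accounted for 0.296% to 0.310% and then for 0.397% to 0.557%.

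Ncoa4, the cargo receptor that delivers ferritin to the lysosome, was measured at 1705, 1579 and 1536 normalized counts in vehicle and at 2442, 2175 and 2089 in melatonin samples. All melatonin samples were higher than all vehicle samples. This was a 1.39-fold rise, a log2 fold change of 0.47 ± 0.09 (SE), with an adjusted p of 0.00253 by limma. Timm23, a mitochondrial import gene on the opposite strand that overlaps Ncoa4, went from 3540 to 3954 in vehicle to 3071 to 3384 in melatonin samples. Whether the counting used strand is not given in the sources used here, so reads in the overlap cannot be told apart. No other gene listed in the table overlapped any of the 10.

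Iron import genes moved in opposite directions. Tfrc, the receptor for transferrin-bound iron, was measured at 6508, 6587 and 5902 normalized counts in vehicle and at 3091, 4803 and 4426 in melatonin samples. The highest melatonin sample stayed below the lowest vehicle sample, and melatonin replicate 1 was the lowest of all. The mean fell 1.54-fold, from 6333 ± 375 to 4107 ± 900 (SD, n = 3 each). On the log2 scale the change was -0.65 ± 0.15 (SE), with an adjusted p of 0.00721 by limma. This is the transcript with 4 elements in its 3′ UTR printed above.

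Slc11a2, a proton-coupled importer of ferrous iron, was the steadiest gene of the set. It was measured at 784, 780.5 and 779.6 normalized counts in vehicle and at 1150.4, 1124 and 1068 in melatonin samples. The vehicle samples differed by less than 1% and every melatonin sample was well above them. The rise was 1.43-fold, a log2 fold change of 0.51 ± 0.08 (SE), with an adjusted p of 0.00111 by limma. The search matched no element in its canonical transcript of 3025 bases, and its other transcripts were not searched.

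Uptake was also set against storage. The ratio of Tfrc to Fth1 counts was 0.110, 0.116 and 0.103 in vehicle and 0.0298, 0.0650 and 0.0531 in melatonin samples. The groups did not overlap, and melatonin replicate 1 held the lowest ratio. The log2 difference was -1.22, with an exact two-sided permutation p of 0.1.

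Slc40a1, the ferroportin gene and the only known iron exporter of mammalian cells, was barely detected. It was measured at 22.4, 20.6 and 19.9 normalized counts in vehicle and at 5.60, 26.2 and 17.1 in melatonin samples. The groups overlapped, because melatonin replicate 2 was the highest and replicate 1 the lowest of all 6. The log2 fold change was -0.57 ± 0.51 (SE), with a 95% interval from -1.73 to 0.59 and an adjusted p of 0.380 by limma. Without melatonin replicate 1 the log2 fold change was 0.015. The summed macrophage markers had their lowest value, 366, in melatonin replicate 1, where Csf1r was at 0 and Cd14 at 1.87, and the part of such cells in the Slc40a1 counts was not tested.

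**Figure D3:**
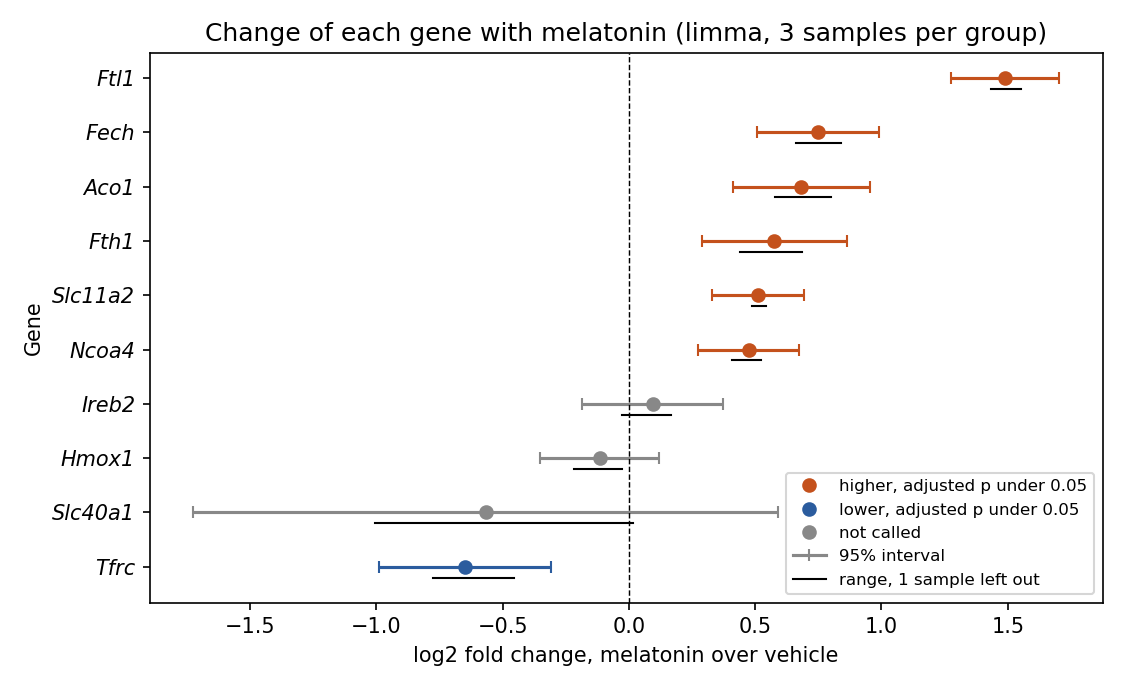
Log2 fold change of melatonin over vehicle for each of the 10 genes (points) with the 95% interval from limma (coloured bars) and the range obtained when any 1 of the 6 samples was left out (black lines). The intervals of 6 genes lie above 0 and that of Tfrc below 0, while those of Ireb2, Hmox1 and Slc40a1 cross 0.

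The iron sensors split. Aco1, a cytosolic aconitase that becomes IRP1 when it lacks its iron-sulfur cluster, was measured at 778, 1057 and 884 normalized counts in vehicle and at 1564, 1397 and 1377 in melatonin samples. All melatonin samples exceeded all vehicle samples, although the vehicle samples were less uniform here than in any other gene of the set (coefficient of variation 15.6%). Its mean was 1.60-fold higher with melatonin, a log2 fold change of 0.68 ± 0.12 (SE), with an adjusted p of 0.00195 by limma.

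Ireb2, which encodes IRP2, a protein degraded when iron is plentiful, was measured at 607, 559 and 537 normalized counts in vehicle and at 547, 567 and 715 in melatonin samples. The groups overlapped, with only melatonin replicate 3 above the vehicle range. The log2 fold change was 0.09 ± 0.12 (SE), its 95% interval ran from -0.19 to 0.37, and the adjusted p was 0.552 by limma. The ratio of Ireb2 to Aco1 counts was 0.781, 0.530 and 0.608 in vehicle and 0.350, 0.406 and 0.519 in melatonin samples. The samples of each group sat side by side without overlap, but the nearest values, 0.519 and 0.530, almost met. The log2 difference was -0.59 with an exact two-sided permutation p of 0.1.

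At the heme end, the synthesis gene rose while the breakdown gene did not pass the test. Fech, ferrochelatase, which inserts iron into protoporphyrin in the last step of heme synthesis, was measured at 1243, 1320.2 and 1134 normalized counts in vehicle and at 2325, 2081 and 1825 in melatonin samples. Every melatonin sample was above every vehicle sample. The gene rose 1.69-fold, a log2 fold change of 0.75 ± 0.11 (SE), with an adjusted p of 0.000688 by limma.

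Hmox1, the inducible heme oxygenase that frees iron from heme, was measured at 1504, 1560.0 and 1565 normalized counts in vehicle and at 1644, 1262 and 1392 in melatonin samples. The melatonin samples lay on both sides of the narrow vehicle range, with replicate 1 above it and the other 2 below it. The log2 fold change was -0.12 ± 0.10 (SE), its 95% interval ran from -0.35 to 0.12, and the adjusted p was 0.382 by limma. Without melatonin replicate 1 it was called lower, at -0.22 with an adjusted p of 0.0408 by limma. The ratio of Hmox1 to Fech counts was 1.21, 1.18 and 1.38 in vehicle and 0.707, 0.606 and 0.763 in melatonin samples. Hmox1 was the more counted gene in every vehicle sample and Fech in every melatonin sample. The log2 difference was -0.86, with an exact two-sided permutation p of 0.1.

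**Figure D4:**
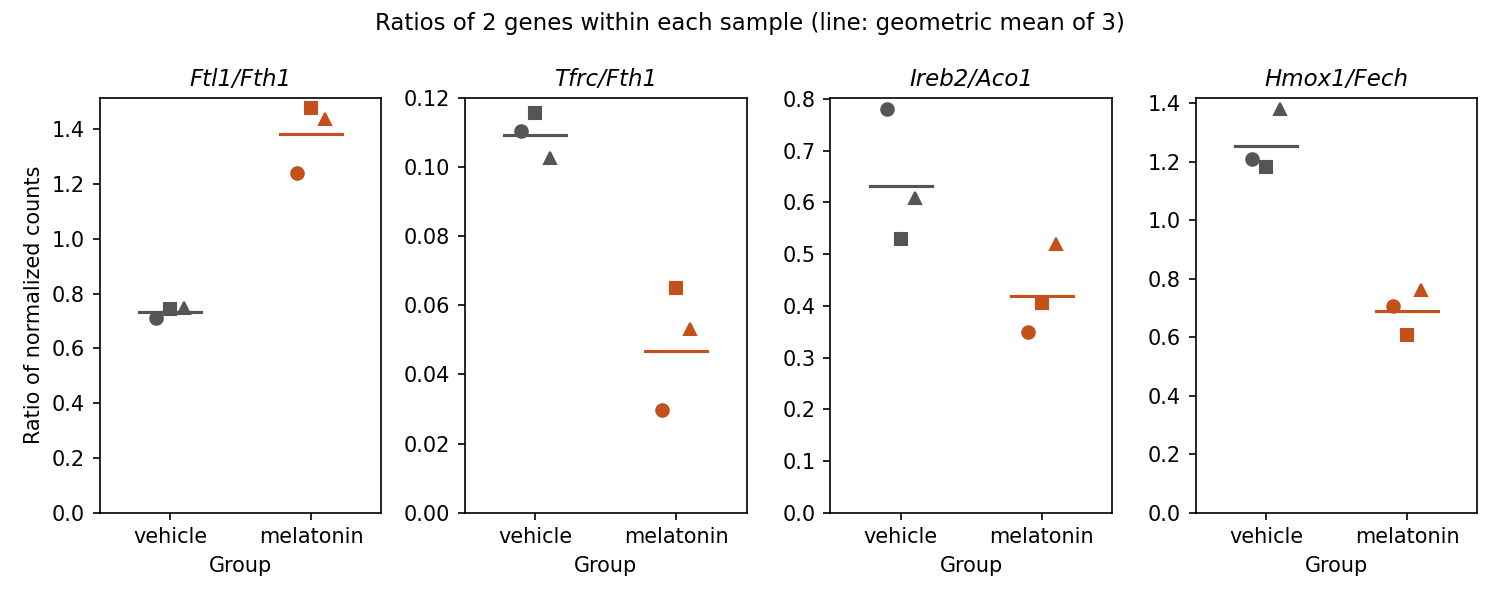
Ratios of normalized counts between pairs of genes within each sample, on linear axes from 0, for 3 vehicle (grey) and 3 melatonin (orange) samples, with marker shape for the replicate number and a line for the geometric mean. The light to heavy ferritin ratio is higher and the other 3 ratios lower in every melatonin sample, and the Ireb2/Aco1 groups come nearest to each other, at 0.530 and 0.519.

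Per kilobase of canonical transcript the genes spanned 4 orders of magnitude. In vehicle the mean level per kilobase was 62234 ± 1113 for Fth1 and 43717 ± 591 for Ftl1, followed by Tfrc at 1294 ± 76.6, Hmox1 at 978 ± 21.7, Ncoa4 at 358 ± 19.6 and Slc11a2 at 258 ± 0.784 (SD, n = 3 each). Below these, Aco1 at 198 ± 30.7 and Fech at 190.3 ± 14.4 did not differ beyond their spread, and Ireb2 at 96.7 ± 6.05 and Slc40a1 at 6.06 ± 0.368 closed the order. The order of Fth1 and Ftl1 in vehicle holds only as the genes are listed and turns when Ftl1-ps1 is added to Ftl1, with summed light chain counts of 88354 to 89057 against 57237 to 59282 for Fth1 with Fth1-ps. With melatonin the level per kilobase was 123053 ± 10214 for Ftl1 and 93670.4 ± 16477 for Fth1. Hmox1 at 909 ± 123 and Tfrc at 839 ± 184 no longer differed beyond their spread, nor did Fech at 321 ± 38.6 and Aco1 at 315 ± 22.4. Ncoa4 at 498 ± 41.0 kept its place between these pairs, while Slc11a2 at 368 ± 14 did not differ from Fech beyond their spread. Ireb2 at 104 ± 15.6 and Slc40a1 at 4.71 ± 2.98 were again the lowest.

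The 7 called genes kept their direction with either kind of melatonin library. Without melatonin replicate 1, the comparison of Xist-positive melatonin libraries with vehicle gave log2 fold changes of 1.43 for Ftl1, 0.44 for Fth1, 0.41 for Ncoa4, -0.46 for Tfrc, 0.49 for Slc11a2, 0.63 for Aco1 and 0.66 for Fech. With melatonin replicate 1 as the only melatonin library, so that all 4 libraries held Y-linked transcripts, the values were 1.60, 0.85, 0.61, -1.03, 0.56, 0.80 and 0.92 in the same order, the spread being taken from the vehicle samples. All 7 genes passed the test by limma in the first fit, but there sex and treatment coincide, so it cannot separate them. The second fit rests on 1 melatonin library, so only its log2 fold changes are given. In that second fit Slc40a1 was at -1.73 and Hmox1 at 0.092. This comparison was chosen after the data had been seen.

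The surrounding pathways were described with 5 wider lists of 87 genes, of which 75 had a row and 74 were tested. In these lists 18 genes were higher and 22 lower, 54.1% called against 49.2% of all genes, and the median log2 fold change was -0.07 against -0.00458 for all genes tested. The lists are descriptions and were not tested as groups.

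**Figure D5:**
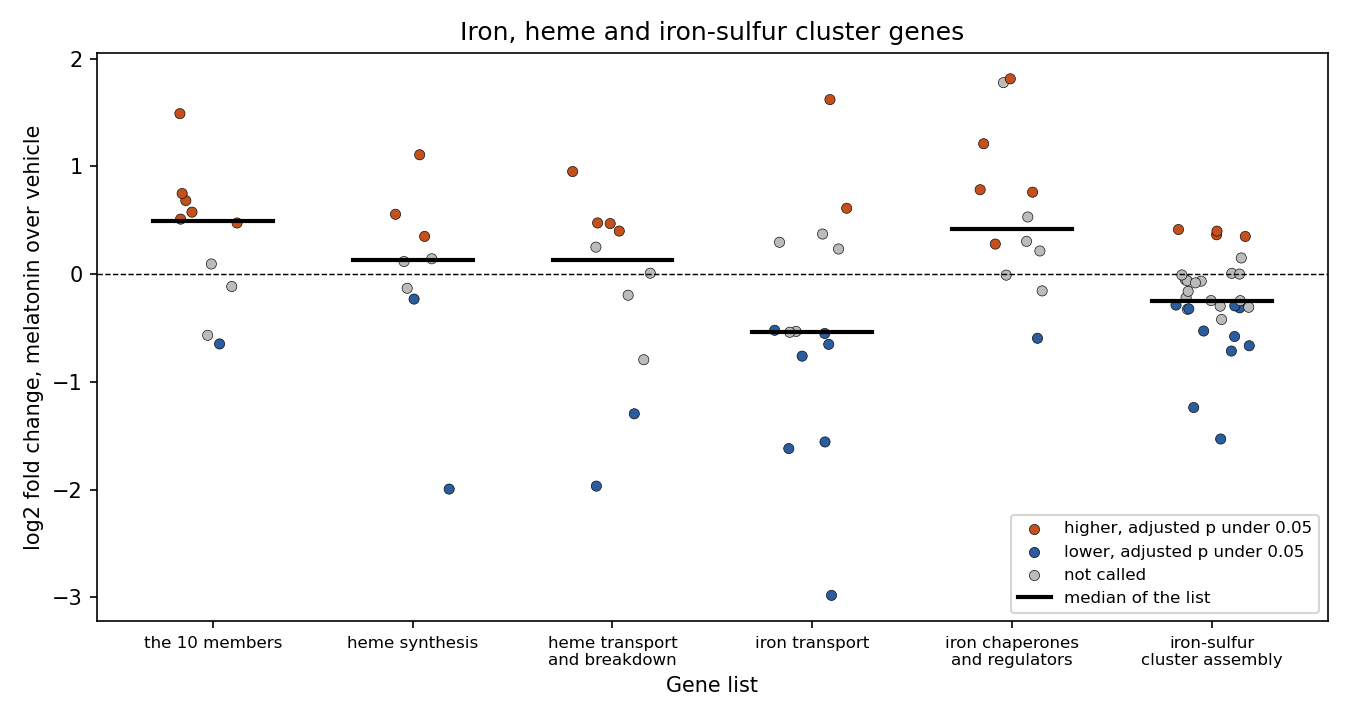
Log2 fold change of melatonin over vehicle for the 10 genes and for the tested genes of the 5 wider lists, each point a gene, coloured by the limma call, with a bar at the median of each list. The medians are 0.13 for heme synthesis and for heme transport and breakdown, -0.54 for iron transport, 0.42 for chaperones and regulators and -0.25 for iron-sulfur cluster assembly.

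In heme synthesis, 3 of 8 tested genes were higher and 2 lower (median log2 fold change 0.13). Cpox, coproporphyrinogen oxidase, had the largest change of the list and fell from 6217, 7074 and 7142 normalized counts to 1224, 2058 and 1962. The log2 fold change was -2.0 ± 0.18 (SE), a 3.90-fold drop, with an adjusted p of 8.95e-05 by limma. Uros, uroporphyrinogen III synthase, which acts earlier, rose from 378, 355 and 263 to 761, 729 and 641, a log2 fold change of 1.11 ± 0.15 (SE) with an adjusted p of 0.000533 by limma. Ppox, the oxidase that acts after Cpox and before Fech, rose by 0.56 ± 0.10. Uros and Ppox thus rose while Cpox fell, but the other listed enzymes that act before Cpox were not called or were called lower. Clpx, a mitochondrial chaperone that acts on the first enzyme, rose by 0.35 ± 0.09, with an adjusted p of 0.0131 by limma that was 0.0515 without vehicle replicate 1 and 0.0532, at 0.21, with a correction for transcript length. That first enzyme, Alas1, had a log2 fold change of 0.12 with an adjusted p of 0.250 by limma. Alas2, the erythroid form, was not listed.

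In heme transport and breakdown, 4 of 10 tested genes were higher and 2 lower (median log2 fold change 0.13). Blvrb, a biliverdin reductase downstream of heme oxygenase, rose from 229, 198 and 159 normalized counts to 430.5, 328 and 373. Its log2 fold change was 0.95 ± 0.17 (SE), with an adjusted p of 0.00192 by limma. Slc48a1, which moves heme out of endolysosomes, rose from 4050.5 to 4170 (range of vehicle) to 7181, 4910 and 5216, by 0.48 ± 0.13 with an adjusted p of 0.0161 by limma. Melatonin replicate 1 was the highest, and without it the value was 0.31. Without vehicle replicate 2 the adjusted p was 0.0558 by limma. The heme-binding Pgrmc1, an X-linked gene, rose by 0.47 ± 0.07, and the porphyrin transporter Abcb6 by 0.40 ± 0.11, with adjusted p of 0.00103 and 0.0174 by limma. Hmox2, the constitutive heme oxygenase, had a log2 fold change of -0.20 (adjusted p 0.0876) and Blvra one of 0.25 (adjusted p 0.0714), both short of the limma threshold. Hmox2 was called lower with upper quartile scaling, sample weights or the length correction (adjusted p 0.0226 to 0.0448, limma). Abcb6 was not called without vehicle replicate 1 (adjusted p 0.0704, limma), and Blvra was called without melatonin replicate 1 (adjusted p 0.00468, limma) and under 3 other alternatives. In the libraries with Y-linked transcripts the log2 fold change of Blvra was 0.044.

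In iron transport, 2 of 14 tested genes were higher and 7 lower, with a median log2 fold change of -0.54. Slc11a1, the natural resistance-associated transporter of phagosomes, fell from 247, 265 and 201 normalized counts to 62.6, 67.7 and 105. Its log2 fold change was -1.62 ± 0.22 (SE), with an adjusted p of 0.000572 by limma. Slc11a1 is itself known from macrophages, whose summed markers were also lower with melatonin, and their part in this fall was not tested. Slc11a1 thus fell while its relative Slc11a2 rose. Slc25a37, the mitochondrial iron importer mitoferrin-1, fell by 0.76 on the log2 scale (SE 0.17), and Slc39a8, a zinc, manganese and iron importer, fell by 0.65 (SE 0.13), with adjusted p of 0.00548 and 0.00341 by limma. Slc22a17, a receptor for the siderophore-binding lipocalin, rose from 56.0, 52.5 and 72.4 to 259, 165 and 149.8, a log2 fold change of 1.62 ± 0.24 with an adjusted p of 0.000865 by limma. The other mitoferrin gene, Slc25a28, had a log2 fold change of 0.30 with an adjusted p of 0.0561, and transferrin itself, Trf, one of -0.53 with an adjusted p of 0.124 (limma). Without melatonin replicate 3, Slc25a28 was called (adjusted p 0.0400, limma), as it was under 4 other alternatives. Without melatonin replicate 1 the log2 fold change of Trf was -0.19, and in the libraries with Y-linked transcripts it was -1.21.

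Among iron chaperones and regulators, 5 of 12 tested genes were higher and 1 lower (median log2 fold change 0.42). Nfe2l2, which encodes NRF2, a transcription factor known to drive ferritin and heme genes through antioxidant response elements, was measured at 916, 1006 and 922 normalized counts in vehicle and at 2637, 2126 and 1881 in melatonin samples. All melatonin samples were far above all vehicle samples. The log2 fold change was 1.21 ± 0.12 (SE), with an adjusted p of 0.000155 by limma. Its inhibitor Keap1 rose by 0.28 ± 0.10, with an adjusted p of 0.0392 by limma, a call that 10 of 21 alternatives did not keep, among them leaving out any 1 vehicle sample or melatonin replicate 1 or 2 (adjusted p 0.0504 to 0.134). Bach1, a heme-sensing repressor of the same elements, was low, at 39.9 to 78.4 in vehicle and 74.3 to 114 in melatonin samples, and had an adjusted p of 0.164 by limma.

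Fbxl5, the iron-sensing subunit of the ligase that marks IRP2 for degradation, rose from 1299, 1503 and 1469.9 to 2904, 2338 and 2058. Its log2 fold change was 0.76 ± 0.13 (SE), with an adjusted p of 0.00150 by limma, whereas Ireb2 RNA itself was not called. Hif1a, a hypoxia-inducible factor, rose from 10796 to 11649.9 in vehicle to 17218 to 20188 in melatonin samples, by 0.78 ± 0.09 with an adjusted p of 0.000244. Its relative Epas1, whose mRNA is a known IRP target, had a log2 fold change of 0.21 with an adjusted p of 0.126, or 0.0482 with a correction for GC content (limma). With 1 sample left out, the log2 fold change of Epas1 ranged from 0.12 to 0.27. Smad4, a mediator of BMP signals, was 245, 289.5 and 350.4 in vehicle and 1543, 1581 and 444 in melatonin samples. Its log2 fold change of 1.81 ± 0.43 (adjusted p 0.00770, limma) rested on melatonin replicates 1 and 2, which stood far above replicate 3. Pcbp1, an iron chaperone that loads ferritin, had a log2 fold change of 0.30 with an adjusted p of 0.320 by limma, and was called without vehicle replicate 3 (0.59, adjusted p 0.0439).

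In iron-sulfur cluster assembly, which draws on mitochondrial iron, 4 of 30 tested genes were higher and 10 lower (median log2 fold change -0.25). Fdx2, the ferredoxin that supplies electrons, fell from 933, 936 and 913 normalized counts to 295, 290.3 and 384. Its log2 fold change was -1.53 ± 0.12 (SE), with an adjusted p of 6.11e-05 by limma. Lyrm4, a partner of the cysteine desulfurase, fell by 1.24 on the log2 scale (SE 0.17). The mitochondrial chaperone Hspa9 fell by 0.71 (SE 0.13) and the transporter Abcb8 by 0.67 (SE 0.09). Their adjusted p values were 0.000526, 0.00263 and 0.000626 by limma. Ciapin1 had a log2 fold change of -0.07 with an adjusted p of 0.564, and Cisd1 one of -0.25 with an adjusted p of 0.132 (limma). With 1 sample left out, the log2 fold change of Cisd1 ranged from -0.35 to -0.096. Without melatonin replicate 3, Cisd1 was called (adjusted p 0.0447, limma), as it was with the length correction. In the libraries with Y-linked transcripts its log2 fold change was -0.55.

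Promoters were searched for the core antioxidant response element, TGACNNNGC on either strand, because Nfe2l2 was called higher. Windows from 250 bases before to 50 bases after a RefSeq start (GRCm38.p6) were at hand for 6 of the 10 genes (Aco1, Fth1, Ftl1, Ireb2, Ncoa4 and Tfrc). A match was found in 1 of their 10 windows, at Ncoa4, against 12.4% of 32851 windows of all genes. Such a match is a description of letters near the start and nothing more, and enhancers farther away were not searched.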

How the data were processed

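RNA-seq of 6 samples was analysed from 1 table. Per the study's methods, the authors aligned reads with STAR to mm39 in Partek Flow, estimated gene counts with the Partek E/M method and Gencode M33, and deposited the values after DESeq2 median ratio scaling, so the deposited unit is a normalized count (signal) and not a raw count. Counts split by E/M need not be whole: 63.2% to 65.7% of the values above 0 were whole multiples of 1 read within 0.01. Size factors read from those steps were 0.915 to 1.07. The labels give 10 ng of input RNA and the methods 10 pg, and the difference was not resolved.

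The replicates were not identical (chi-square per degree of freedom 6.05 to 34.6 within groups and 81.2 to 175 between them).

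Limma 3.58.1 in R 4.3.3 (lmFit, eBayes with trend) was run on log2(value + 1) for genes with at least 10 in at least 1 sample, with treatment as the only term and Benjamini-Hochberg adjustment. Fold changes on this scale understate those of low genes. The fit was tested on simulated data. Ratios of genes were tested with exact two-sided permutation tests. Copies of a gene were found with blastn 2.17.0, and transcript sequences, lengths and hairpins were taken from GRCm39 with Gencode M39, in which 16334 of 16381 genes matched.

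The 10 genes and all lists were chosen with earlier results of these data known. From each wider list, the text names up to 4 called genes with the largest absolute log2 fold change and a mean of at least 100, the 2 uncalled genes with the highest mean, and always Nfe2l2, Bach1 and Keap1. Of the genes that this rule names, 1 is not reported here. Alternatives were another pseudocount, filter, scaling, test or threshold, a replicate block, length and GC corrections, leaving out each sample, and 2 added after seeing the data (ferritin summed with its pseudogenes, and the libraries with Y-linked transcripts).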

Additional observations from a re-analysis of the deposited data

How the results depend on the processing

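The 7 called genes of the set kept their direction and call under the alternatives run, 22 for Ftl1 and Fth1 and 21 for the other 5. The fit of the libraries with Y-linked transcripts is among these, and it held only melatonin replicate 1 as a melatonin sample. With an adjusted p under 0.01, 2188 genes were higher and 2267 lower in place of 3529 and 3565, and 11 genes of the wider lists were higher in place of 18, since the threshold is stricter. The number of the 10 genes called lower ranged from 1 to 2 when 1 sample was left out, the second being Hmox1 without melatonin replicate 1. Direction turned for genes that were not called. Hmox1 was at 0.092 in the libraries with Y-linked transcripts. Ireb2 was at -0.028 with the length correction, -0.041 with the GC correction and -0.051 in the libraries with Y-linked transcripts. Ciapin1 was at 0.021 with the GC correction. With 1 sample left out, the log2 fold change ranged from -1.01 to 0.015 for Slc40a1, -0.026 to 0.17 for Ireb2, -0.0023 to 0.59 for Pcbp1 and -0.13 to 0.0017 for Ciapin1. The causes were not tested. Direction turned in 9 of 882 values for single genes. No scaling moved the median of all genes by more than 0.1. With the replicate block, 6 of the 10 genes were higher and 1 lower, as without it, 3160 genes were higher and 3278 lower, and of the genes named only Keap1 lost its call (adjusted p 0.0816, limma). Samples with the same number did not deviate together (correlations -0.05, 0.01 and -0.05). This does not show whether the samples were set up in pairs. Genes with few counts, such as Slc40a1, allow only wide intervals at this depth.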
